A study of Mus musculus with 3 samples.

Results

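The regions described here are stretches of the mouse genome that were called as open chromatin in the Control library and in neither PDGFB library. They were selected on measured values: overlapping peaks of 3 lists (1 bp shared or more) on chromosomes 1 to 19, X and Y were merged, and a merged region was kept if it held a Control peak and no peak of the other lists. There were 14458 such Control-only regions among 147229 merged regions, which is 9.82% (95% exact binomial interval 9.67 to 9.97). Each was made of a single Control peak. The intervals given with shares cover counting error only, and each group was 1 library with no replicate, so no difference between libraries was tested.

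The study profiled single nuclei of mouse brain tumors made by in utero electroporation of piggyBac constructs, with a droplet ATAC-seq kit. One library came from tissue that overexpressed PDGFB-WT, another from tissue that overexpressed PDGFB-NLS, and the last was labelled Control. PDGFB is a growth factor chain that signals through the receptors PDGFRA and PDGFRB; NLS is written as in the labels. All 3 libraries carried the tissue label glioma, also Control, so whether Control was a tumor without PDGFB is not clear from the labels. The sources used here give no strain, age, promoter driving the transgene or number of animals pooled, nor what was electroporated in Control.

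In ATAC-seq the transposase Tn5 cuts DNA that is not wrapped tightly in nucleosomes, so cuts pile up at active promoters and enhancers. Promoters are open in most cell types, whereas enhancers, many of them in introns or between genes, are typically open in few. A peak caller reports a region only where the pile passes a threshold in that library, so a region in 1 list is not a region open in 1 library: its count in the other libraries is unknown here, because counts were deposited for called peaks only.

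Promoter sequences are shown for the densest Control-only region over a start site. For each named cell cluster described further on, a protein-coding start site is also shown. Its Control-only region had the most counts among those called at least 4-fold higher in that cluster, by the rule given further on. The OPC-like cluster had no such start site. They come from RefSeq (GRCm38.p6, the assembly behind mm10), run 5′ to 3′ from 250 bases before to 50 after the start, and carry matches of 5 motifs in capitals. These were GGGCGG (the GC box, bound by SP and KLF factors), TGTGGT (RUNX), GAGGAAGT (ETS factors and PU.1), TGANTCA (AP-1) and TGACGTCA (CRE), each on both strands. Elk4, an ETS factor that responds to mitogens, was the densest. Bmf, a BCL2-family protein that promotes cell death, was called in the microglia or macrophage-like cluster, with 173 of 235 counts there. Ecm1, a secreted matrix protein (37 of 95), and Tinagl1, a basement membrane protein (46 of 151), were called in endothelial-like clusters 3 and 7. Kcna2, an axonal potassium channel (144 of 234), was called in the oligodendrocyte-like cluster. Foxf2, a forkhead factor of brain pericytes (47 of 186), was called in the mural or fibroblast-like cluster. Most counts of the Ecm1, Tinagl1 and Foxf2 regions thus lay in other barcodes.
Elk4 promoter, chr1:132007852-132008151, plus strand: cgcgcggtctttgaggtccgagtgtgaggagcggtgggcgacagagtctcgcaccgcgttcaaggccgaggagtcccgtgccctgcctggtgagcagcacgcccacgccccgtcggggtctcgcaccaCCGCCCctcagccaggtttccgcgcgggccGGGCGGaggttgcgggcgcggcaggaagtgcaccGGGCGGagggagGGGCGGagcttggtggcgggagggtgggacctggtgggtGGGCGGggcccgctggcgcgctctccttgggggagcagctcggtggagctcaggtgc
Bmf promoter, chr2:118547550-118547849, minus strand: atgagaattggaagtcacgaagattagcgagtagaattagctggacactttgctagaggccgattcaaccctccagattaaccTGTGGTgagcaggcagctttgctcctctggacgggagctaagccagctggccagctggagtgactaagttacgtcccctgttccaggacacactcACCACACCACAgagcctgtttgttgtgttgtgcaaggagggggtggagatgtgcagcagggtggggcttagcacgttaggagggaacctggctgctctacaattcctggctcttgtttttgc
Ecm1 promoter, chr3:95739520-95739819, minus strand: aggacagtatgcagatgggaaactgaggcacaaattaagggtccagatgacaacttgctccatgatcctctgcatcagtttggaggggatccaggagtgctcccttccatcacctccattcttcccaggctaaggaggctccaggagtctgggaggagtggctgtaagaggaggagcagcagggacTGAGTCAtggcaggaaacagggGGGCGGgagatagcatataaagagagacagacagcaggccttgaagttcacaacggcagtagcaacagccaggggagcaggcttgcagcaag
Kcna2 promoter, chr3:107101317-107101616, plus strand: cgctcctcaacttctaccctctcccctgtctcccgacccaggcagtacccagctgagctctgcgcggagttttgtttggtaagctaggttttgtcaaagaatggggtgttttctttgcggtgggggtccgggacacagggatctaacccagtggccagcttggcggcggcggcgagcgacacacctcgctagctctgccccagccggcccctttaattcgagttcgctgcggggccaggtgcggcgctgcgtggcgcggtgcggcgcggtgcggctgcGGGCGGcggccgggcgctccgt
Foxf2 promoter, chr13:31625566-31625865, plus strand: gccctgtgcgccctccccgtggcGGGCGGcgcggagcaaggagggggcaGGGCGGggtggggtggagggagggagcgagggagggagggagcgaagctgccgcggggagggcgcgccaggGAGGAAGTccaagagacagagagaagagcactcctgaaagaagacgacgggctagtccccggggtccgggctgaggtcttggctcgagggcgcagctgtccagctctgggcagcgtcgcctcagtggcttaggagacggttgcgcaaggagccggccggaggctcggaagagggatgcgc
Tinagl1 promoter, chr4:130174753-130175052, minus strand: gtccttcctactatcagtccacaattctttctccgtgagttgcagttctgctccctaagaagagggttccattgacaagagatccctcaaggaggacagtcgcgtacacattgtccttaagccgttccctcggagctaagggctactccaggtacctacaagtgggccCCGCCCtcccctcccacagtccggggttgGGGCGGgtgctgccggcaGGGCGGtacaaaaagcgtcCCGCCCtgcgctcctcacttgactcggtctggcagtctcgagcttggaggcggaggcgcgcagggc
The Elk4 window held 5 GC boxes within 122 bases upstream of the start. The 2 RUNX matches of Bmf at positions -72 and -67 overlapped by 1 base. In Foxf2 an ETS match stood at -130, downstream of GC boxes at -227 and -201.

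Depth differed widely between the libraries. After barcodes under 200 counts were removed, PDGFB-WT had 7441 barcodes and 7008951 counts (median 821 a barcode), PDGFB-NLS 10996 barcodes and 31177621 counts (2767.5), and Control 2226 barcodes and 31588784 counts (13054). Peaks numbered 57616, 127094 and 107627 in that order, so the shallowest library had the fewest. The part of depth in which regions were called in Control only was not tested. Barcode sequences found in 2 libraries numbered 118 for PDGFB-WT and PDGFB-NLS, 22 for PDGFB-WT and Control and 45 for PDGFB-NLS and Control.

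The Control-only regions were weak peaks. They covered 12.2 Mb, 12.8% of the length of all Control peaks, and held 2.75% of the Control counts. The median region was 867 bp long and had 48 counts from 23 barcodes, 1.03% of the Control barcodes. Per length, the median was 56.0 counts per kb (quartiles 41.7 and 80.4), against 96.9 in Control peaks shared with PDGFB-NLS only and 289 in those of regions called in all 3 libraries. Control peaks shared with PDGFB-WT only had a median of 56.2 counts per kb, close to the Control-only value. Counts ran from 8 to 992 a region, and 1498 regions (10.4%) had at least 100. Only 8.56% of the Control-only regions lay above the median density of all Control peaks, 129 counts per kb. Peaks found in PDGFB-NLS alone were of similar density in their own library, with a median of 55.6 counts per kb.

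**Figure D1:**
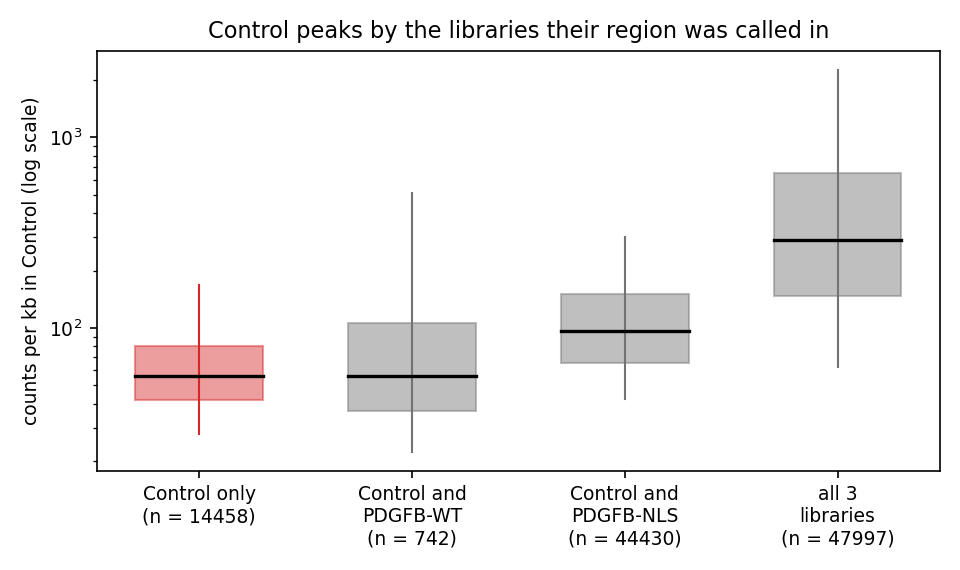
Counts per kb in the Control library (log scale) for Control peaks, by the libraries in which their merged region was called. Black lines are medians, boxes quartiles and whiskers the 5th and 95th percentiles over peaks; the Control-only regions have a median of 56.0 and the regions of all 3 libraries a median of 289.

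Many of the denser Control-only regions bordered a PDGFB peak. The median distance to the nearest PDGFB-WT or PDGFB-NLS peak was 2920 bp (quartiles 896 and 7681). The nearest peak was a PDGFB-NLS peak for 75.4% of the regions, and PDGFB-NLS also had more peaks (127094) than PDGFB-WT (57616). Density was 89.4 counts per kb (median) in the 483 regions under 100 bp from a PDGFB peak and 36.5 in the 1254 regions at 20 kb or more, with the bins between in falling order. Of the 50 densest regions with at least 100 counts, 42 lay within 500 bp of a PDGFB peak, and of all 1498 regions with at least 100 counts 34.5% did, against 15.5% of the 14458. On either side of the 1 bp rule the peaks were alike: 214 Control-only regions less than 50 bp from a PDGFB peak had a median of 88.9 counts per kb, and 168 Control peaks that shared at most 50 bp with one, and so were left out, had 85.6.

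**Figure D2:**
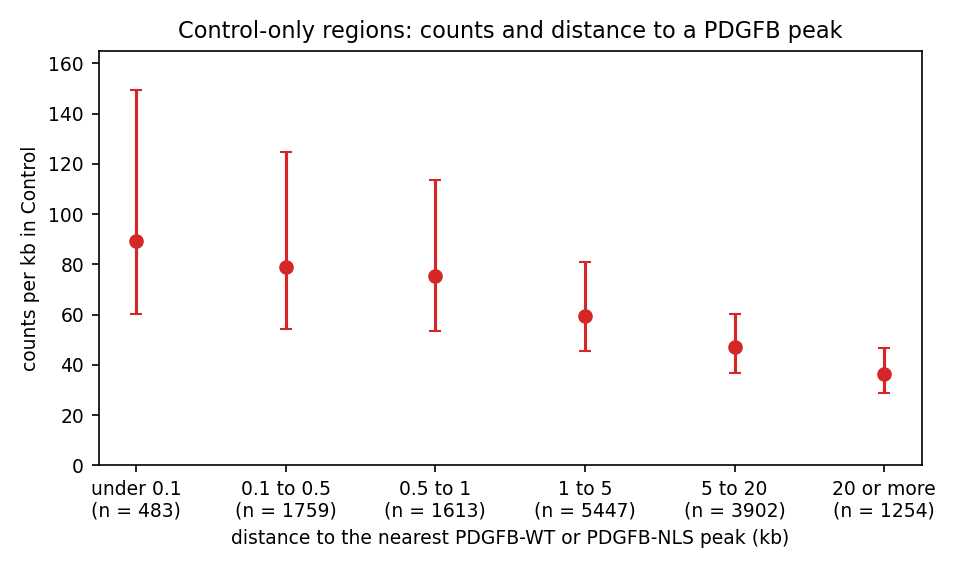
Counts per kb in Control of the Control-only regions, by distance to the nearest peak of either PDGFB library. Points are medians and bars reach the quartiles over regions; medians go from 89.4 under 0.1 kb to 36.5 at 20 kb or more.

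The 10 densest regions with at least 100 counts all stood in a gene or within 1000 bp of one, and none was more than 118 bp from a PDGFB peak. The densest covered the start of Elk4 (chr1:132007829-132008199, mm10), with 971 counts from 453 barcodes, or 2617 counts per kb. It ended 18 bp from a region called in all 3 libraries, and that neighbour had 31.9 CPM in PDGFB-WT (exact Poisson interval 27.7 to 36.4), 33.1 in PDGFB-NLS (30.9 to 35.4) and 42.8 in Control, where CPM is the count scaled to a sum of 1000000 over regions of all 3 libraries. The next lay near the ends of Hnrnpa3, an RNA-binding protein of splicing (968 counts, 1928 per kb), and Atf4, the transcription factor of the integrated stress response (781 counts, 1767 per kb). Their neighbouring shared regions had 108 and 86.8 CPM in PDGFB-WT, 118 and 99.2 in PDGFB-NLS, and 115 and 102 in Control. The others were at Cpeb2, a regulator of translation, Ubald1, Timeless, a replication fork protein, Wdfy3, an autophagy scaffold, and Ctbp1, a corepressor. Wdfy3 was also the only one of the 10 that was 4-fold higher in 1 cluster of Control nuclei.

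At Agbl5, a tubulin deglutamylase, 2 of the 10 lay on either side of a PDGFB peak. The regions chr5:30887264-30887749 (698 counts) and chr5:30888688-30889070 (561 counts, over the start site) enclosed chr5:30887868-30888622, which was called in both PDGFB libraries, with 574 counts in PDGFB-WT and 1805 in PDGFB-NLS, and in which Control had no peak. Among the 2327 Control-only regions under 500 bp from a merged region with a PDGFB peak, that neighbour had been called in all 3 libraries for 34.2% and in Control and PDGFB-NLS for 47.0%; it was a region of both PDGFB libraries without Control for 29.

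Away from PDGFB peaks, high counts were rare. At 10 kb or more there were 2768 Control-only regions (19.1%), with a median of 40.6 counts per kb, and 22 of them had at least 100 counts. The densest of these, named after their values were seen, lay at an end of Zfp651, a zinc finger gene (243 counts, 597 per kb), near Gm33592 and 19495 bp from Pip4k2a (183 counts), in Kif1b, a kinesin motor (184 counts), inside Igfbp7, a secreted protein of brain vessels, over a start of Gm34648 (156 counts), and in Itga6, the laminin receptor subunit (135 counts). At Zfp651 the Control-only region was the only region of any library in the gene or within 2 kb.

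The Control-only regions were mostly distal. Of the 14458, 12.2% (11.6 to 12.7) lay within 1000 bp of an end of a gene, 59.9% elsewhere in a gene body and 28.0% between genes. Among all 147229 regions these shares were 20.1%, 52.2% and 27.6%, and among regions of all 3 libraries 34.9% were at gene ends. The shares resembled those of regions found in PDGFB-NLS alone (11.5%, 59.3% and 29.1%). Since the gene table gives no strand, a gene end is either the start or the stop. A RefSeq start site itself was covered by 267 of the 13974 Control-only regions off chromosome 18, for which the promoter table used here has no entries: 1.91% (1.69 to 2.15), against 9.45% of all regions and 23.1% of those called in all 3 libraries. The median distance to a start site was 21166.5 bp in Control-only regions and 18947 bp in all regions.

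Regions at gene ends were somewhat denser, with a median of 64.8 counts per kb, than those in gene bodies (58.8) and between genes (48.3), and 26.0%, 15.1% and 11.8% of them lay within 500 bp of a PDGFB peak. Control-only regions made up between 8.79% (chromosome 4) and 10.9% (X) of the merged regions of each chromosome, apart from Y, with 1 of 22. Most, 11002, stood singly between regions of other combinations, and the longest unbroken run held 6 (chr15:100318092-100389202).

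In the 352 RefSeq promoter windows of 300 bases that overlapped a Control-only region, 1.07% of 32851, base composition was that of promoters at large. The median GC share was 52.0%, against 52.7% in all windows and 61.7% in the 13931 that overlapped a region of all 3 libraries. The GC box was present in 29.8% (25.1 to 34.9) of them, against 35.7% of all windows and 64.8% of those open in all 3 libraries. TGTGGT was present in 22.2% (17.9 to 26.9) against 16.8% of all windows and 17.8% of the 866 at PDGFB-NLS-only regions. TGANTCA was found in 8.24% (5.59 to 11.6) against 7.81%, GAGGAAGT in 3.98% (2.19 to 6.58) against 3.20%, TGACGTCA in 1.42% against 1.79%, and the E-box CANNTG, bound by bHLH factors, in 75.3% against 72.3%. A match is a string in a window and not a measured binding site.

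Of 16715 protein-coding genes with a Control region in the body or within 2 kb, 32.2% (5384) held at least 1 Control-only region. Long genes held more: the share was 12.7% among genes under 10 kb and 77.9% among those of 300 kb or more. Control-only regions made up 7.47% of the Control regions in the first class and 16.7% in the last. Pde4b, a cAMP phosphodiesterase, Ptprd, a synaptic receptor phosphatase, and Pcdh9, a protocadherin, held 17 each. Nav2, a cytoskeletal guidance protein, and Magi1, a junction scaffold, held 16, Ldlrad4, an inhibitor of TGF-beta signalling, 14, and Spock1, a testican proteoglycan, Akap13, an anchoring protein for protein kinase A, Dock4, a RAC activator, and Ankrd44, a phosphatase subunit, 13 each.

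These genes differed in which Control nuclei carried the regions. Here and below, a region counts as 4-fold higher in a cluster only if its highest CPM of all clusters was there, with at least 20 counts. In Pde4b the 17 regions had 39 to 215 counts (median 68), 82.0% of the counts were in the oligodendrocyte-like cluster, and 8 of the 13 regions with at least 50 counts were 4-fold higher there, where 8.85% of all Control peaks and 10.3% of Control-only regions were. In Ptprd 77.6%, in Spock1 69.8% and in Pcdh9 63.0% of the counts fell in that cluster, with 5 of 10, 6 of 12 and 1 of 2 tested regions 4-fold higher there in that order. In Ldlrad4 66.1%, in Akap13 57.4%, in Ankrd44 56.7%, in Magi1 55.6%, in Dock4 51.1% and in Nav2 45.5% of the counts fell in the microglia or macrophage-like cluster. The tested regions called 4-fold higher there numbered 3 of 11 in Dock4, 2 of 9 in Akap13 and 2 of 8 in Magi1. In Ankrd44 they numbered 1 of 8, in Ldlrad4 1 of 14 and in Nav2 none of 14, against 10.9% of all Control peaks. Regions with their highest CPM in another cluster were not counted, so further regions may also be 4-fold higher there. Over all Control-only regions the oligodendrocyte-like cluster held 22.5% of the counts and the microglia or macrophage-like cluster 36.8%. The 22 regions of Pde4b that were called in all 3 libraries summed to 250.6 CPM in PDGFB-WT, 221 in PDGFB-NLS and 221 in Control.

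A further 221 protein-coding genes, 1.41% of the 15621 with any peak within 1000 bp of an end, had nothing but Control-only regions there. By counts these were led by Dnah2, an axonemal dynein (454), Mical1, an actin-oxidizing enzyme (422), Mrgprf, an orphan receptor of smooth muscle (299), Zfp651 (243) and Ifitm10 (231). Clic3, a chloride channel protein (212), H60b, a ligand of the NKG2D receptor (197), Lrrc4c, a netrin-G ligand (192), Spata18, a mitochondrial quality factor (183), and Six2, a homeodomain factor of kidney and meningeal progenitors (178), followed. The Clic3 region was 4-fold higher in the oligodendrocyte-like cluster, with 132 of 212 counts there, and those of Mrgprf (72 of 299) and Six2 (27 of 119) in the mural or fibroblast-like cluster, although 56.9% of the Mrgprf counts came from the oligodendrocyte-like one.

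Gene lists chosen for cell types and pathways held Control-only regions to different degrees, set here against 13.1% of the Control regions at all protein-coding genes. HOX genes, which set position along the body axis, had the highest share among lists with at least 20 Control regions, 14 of 53 (26.4%). Inhibitory neuron markers had 13 of 59 (22.0%), 10 of them in Erbb4, oligodendrocyte markers 26 of 133 (19.5%) and mural or fibroblast markers 11 of 65 (16.9%). PDGF receptor signalling (29 of 198, 14.6%), OPC markers (22 of 160, 13.8%) and lymphocyte markers (3 of 22, 13.6%) were near the background. Microglia or macrophage markers (10 of 85), ependymal (5 of 43), endothelial (12 of 119), astrocyte (8 of 86), interferon and antigen presentation (6 of 70), synapse (14 of 166), AP-1 (3 of 42), neural progenitor (4 of 67) and excitatory neuron genes (5 of 88) lay between 11.8% and 5.68%. Ribosomal protein genes had 1 of 40 (2.50%) and erythroid markers 2 of 9. Only protein-coding genes were looked up, so of the 5 genes in the list of Y-linked genes and Xist 4 were examined. No Control region lay at these 4, and the noncoding Xist was not examined.

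**Figure D3:**
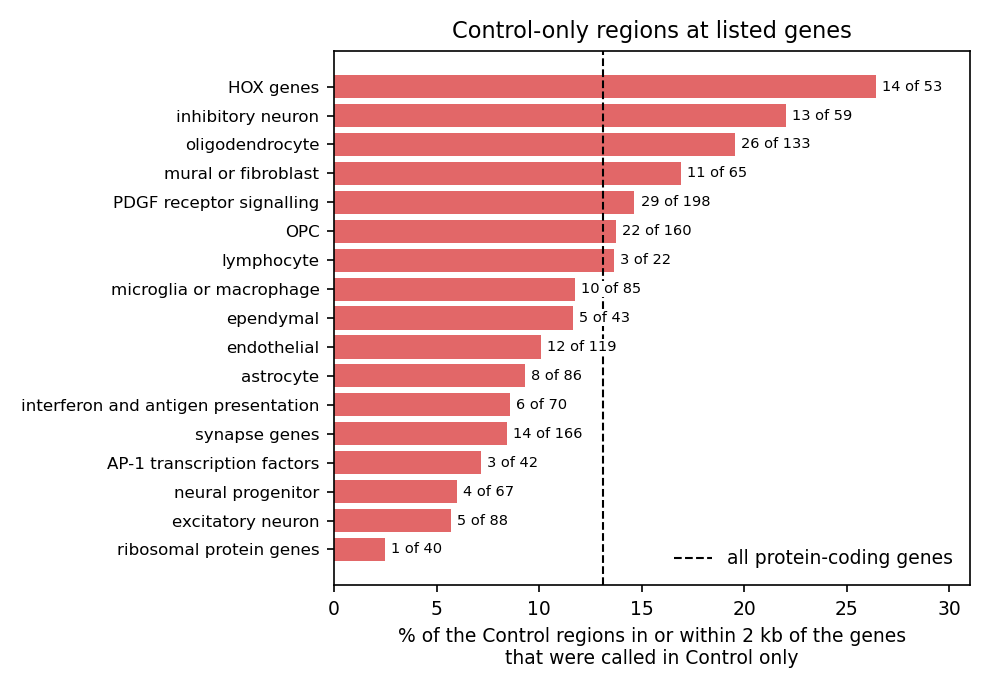
Share of the Control regions in or within 2 kb of the genes of a list that were called in Control only, for lists with at least 20 such regions; numbers are Control-only regions of all Control regions. The dashed line marks 13.1% at all protein-coding genes, with HOX genes at 26.4% and ribosomal protein genes at 2.50%.

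By genes rather than regions, 17 of 35 HOX genes (48.6%) held a Control-only region, against 32.2% of all genes. These 17 HOX genes held only 14 distinct regions, since a region within 2 kb of 2 neighbouring genes counts for both. The share was 9 of 18 oligodendrocyte genes (50%), 16 of 30 genes of PDGF receptor signalling (53.3%) and 11 of 18 OPC genes (61.1%). Ribosomal protein (1 of 24), interferon and antigen presentation (5 of 25) and excitatory neuron genes (4 of 18) were below that share. The HOX genes were short (median 3.81 kb), while the PDGF signalling genes had a median length of 47.4 kb and all genes with a Control region 23.3 kb.

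The 14 HOX regions had 53 to 151 counts and lay in all 4 clusters of the family. The highest were between Hoxc6 and Hoxc5 (151 counts from 77 barcodes), at Hoxc9 (141), between Hoxd9 and Hoxd8 (135) and at Hoxc4 (133). Their counts came mostly from the microglia or macrophage-like cluster, 59.5%, against 36.8% for all Control-only regions. The Hoxc4 region was 4-fold higher in the unnamed cluster 5, with 20 of 133 counts there.

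At oligodendrocyte genes the counts came mostly from the nuclei of that name. The clusters were named from these same marker lists, by counts in regions of all 3 libraries at these genes. A match between a list and the cluster of its name is therefore no independent support for the name. Of the 2359 counts in the 26 regions at markers of this cell type, 73.1% were in the oligodendrocyte-like cluster, and 9 of the 21 with at least 50 counts were 4-fold higher there, against 8.85% of all Control peaks. In Tspan2, a tetraspanin of myelinating cells, 3 neighbouring regions inside the gene between chr3:102745792 and chr3:102749462 had 166, 166 and 129 counts, of which 160, 149 and 118 were in that cluster. In Ugt8a, the enzyme that makes the myelin lipid galactosylceramide, 6 regions held 365 counts, 83.8% of them there. The region in Sox10, the factor that specifies oligodendrocyte lineage cells, had 195 of 224 counts there, and the region inside Sox2, a stem cell factor, 174 of 272. The 22 regions at OPC markers had 56.2% of their counts in the oligodendrocyte-like cluster and 4.33% in the OPC-like one, which held 2.36% of all counts. Pcdh15, a protocadherin, had 67.3% of the counts of its 7 regions in the oligodendrocyte-like cluster, while Xylt1, a proteoglycan-synthesis enzyme, had the largest share of its 138 counts, 32.6%, in cluster 2.

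At microglia or macrophage markers, 83.8% of the 870 counts lay in the cluster that was named from these markers. An example was P2ry12, the ADP receptor of resting microglia, with 88 of 94 counts there in the denser of its 2 regions. Class II antigen presentation genes were alike: H2-Aa had 73 of 74 counts there and the denser region of H2-Eb1 70 of 76. Fos, the immediate early AP-1 gene, had a region within 2 kb of its body with 441 counts from 186 barcodes, 67.8% of them in this cluster, below the 4-fold mark. Endothelial markers such as Flt1, a VEGF receptor (3 regions), had 27.7% and 27.5% of their counts in the 2 endothelial-like clusters.

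Neural lists split between clusters. The 14 regions at synapse genes had 54.3% of their 678 counts in the unnamed cluster 2, and 3 of the 6 with at least 50 counts were 4-fold higher there, against 4.5% of all Control peaks. Grin2a, an NMDA receptor subunit, held 2 regions of 59 counts each, with 80.5% of the counts in cluster 2. The 5 regions at excitatory neuron genes had 37.4% of their 441 counts in the microglia or macrophage-like cluster and 34.7% in cluster 2. Of these, the region of Fezf2, a cortical transcription factor, had 82.0% of 111 counts in cluster 2. Fezf2 is also among the genes that lead cluster 2 in shared regions, as given further on. The 2 regions of Slc17a7 had 47.9% of 188 counts in the microglia or macrophage-like cluster, and 1 of them was 4-fold higher in the unnamed cluster 5. The glutamate transporters of astrocytes differed: Slc1a2 had 81.5% of 92 counts in cluster 2, while Slc1a3 had 60.3% of 224 counts in the microglia or macrophage-like cluster. The 10 regions in Erbb4, a neuregulin receptor, were weak (12 to 45 counts), and 69.7% of their counts came from the oligodendrocyte-like cluster. The lymphocyte gene Cd79a, part of the B cell receptor, had 78.0% of 118 counts in the microglia or macrophage-like cluster.

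PDGF receptor signalling genes held 29 Control-only regions with 2821 counts. Pik3r1, the regulatory subunit of PI 3-kinase, had 5 with 61 to 136 counts, and Ptpn11, the phosphatase SHP2, 3, of which 1 had 141 of 171 counts in the oligodendrocyte-like cluster. Pdgfrb, the receptor of mural cells, held 3 (99, 68 and 44 counts), the first and second of which were 4-fold higher in the mural or fibroblast-like cluster. That cluster had 31.3% of the 211 counts of these 3 regions. Over the 11 regions at mural or fibroblast markers it had 24.3% of 647 counts, and the microglia or macrophage-like cluster 26.6%. Pdgfb held 2. Pdgfra, the receptor of OPCs, and Olig2 held none, of 4 and 1 Control regions there; at Pdgfra 4 regions had been called in PDGFB-NLS alone.

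Nearly every Control barcode carried Control-only regions. Of 2226 barcodes 2224 had at least 1 count in them, the median barcode had counts in 158.5 of the regions, and the median share of a barcode's counts was 2.56% (quartiles 1.96 and 3.10, highest 16.6). The barcode that gave most to a region gave a median of 8% of its counts, and in no region did it give over 50%. Over quartiles of depth the median share was 2.72, 2.35, 2.44 and 2.66% from the shallowest to the deepest. The deepest 10% of barcodes held 21.3% of the counts in Control-only regions and 21.8% of those in regions of all 3 libraries.

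Control barcodes were clustered on regions of all 3 libraries, so that no Control-only region entered. Clusters were named from the marker lists used above, by counts in those same shared regions. Cluster 1 was microglia or macrophage-like (496 barcodes), clusters 3 and 7 endothelial-like (434 and 77), cluster 4 oligodendrocyte-like (361), cluster 6 mural or fibroblast-like (124) and cluster 8 OPC-like (57). Cluster 2 (457, led by Mlc1, Fezf2 and Gli3), cluster 5 (148, led by Cldn34d, Chl1 and Kctd16), cluster 9 (43, led by Rac2 and Cd3d) and cluster 10 (29, led by St8sia3 and Celf3) kept no name; in cluster 2 astrocyte and neural progenitor markers were higher by nearly the same amount (median log2 fold 1.94 and 1.88). In cluster 5 inhibitory neuron markers (1.14) led excitatory neuron markers (0.77), and in cluster 10 the same lists had 0.86 and 0.83. Both margins were too small for a name. In cluster 9 lymphocyte markers led with 0.42, too low for a name. The labelled tissue is glioma. Markers of oligodendrocyte lineage, myeloid and vascular cells each led a named cluster, and no list used here marks tumor cells as such.

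The median share of counts in Control-only regions was lowest in the OPC-like cluster, 1.34%, and in cluster 2, 1.59%. It was 2.43% in oligodendrocyte-like, 2.67 and 3.01% in the endothelial-like, 2.81% in microglia or macrophage-like and 3.39% in mural or fibroblast-like barcodes, and 2.86 and 2.54% in clusters 9 and 10. Cluster 5 stood apart with 10.8% (quartiles 7.77 and 12.9). It had 3.34% of the Control counts and 10.9% of those in Control-only regions, and 69.3% of the 192 barcodes above 5% belonged to it. Its counts were also shifted among the other regions, with 62.8% in regions of all 3 libraries and 27.6% in those of Control and PDGFB-NLS, where the microglia or macrophage-like cluster had 80.7% and 16.3%.

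The high share in cluster 5 was spread over many regions. Of 6772 Control-only regions with at least 50 counts, 87.0% were higher per shared count in cluster 5 than in the other barcodes. This share was 80.4% for the regions of Control and PDGFB-NLS and 57.0% for the regions of all 3 libraries. Of the 6772, 57 (0.842%) had their highest CPM in cluster 5, at 4-fold or more and with at least 20 counts in it. This share is at the background, 0.818% of all Control peaks tested. The cluster held 3.34% of the Control counts, so 20 counts in it are hard to reach for a weak region. Within the cluster the share went with depth: its median was 12.5% in the 59 barcodes of the lowest depth quartile, 9.86% in 72 of the second and 6.75% in 17 of the third, where other barcodes had 2.52, 2.13 and 2.42%. The cluster's median depth was 6865 counts, and doublets and damaged nuclei were not marked, so their part in this result was not tested. Without cluster 5 the Control-only regions held 2.53% of the Control counts.

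**Figure D4:**
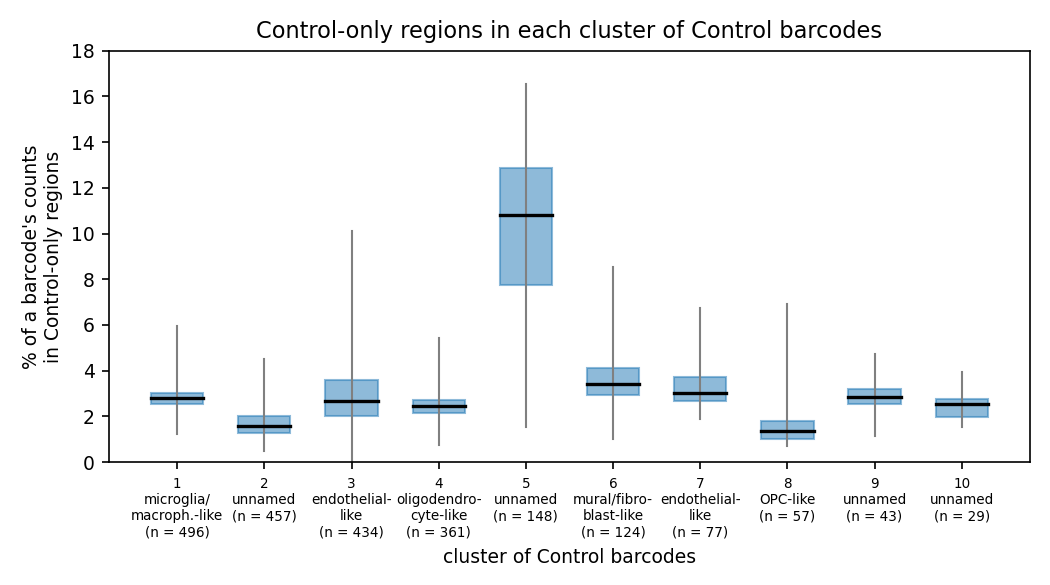
Share of each Control barcode's counts that lay in Control-only regions, by cluster. Black lines are medians, boxes quartiles and thin lines run from the lowest to the highest barcode; cluster 5 has a median of 10.8% and the other clusters medians of 1.34 to 3.39%.

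Over all counts, Control-only regions were cluster-high about as often as Control peaks at large. For each region with at least 50 counts, only the cluster with its highest CPM was tried. The region was called cluster-high where that CPM was at least 4 times that in all other barcodes, with at least 20 counts in the cluster. A region 4-fold higher in a large cluster was thus not called if a small cluster had a higher CPM from fewer than 20 counts. The call was made for 2320 of the 6772 Control-only regions (34.3%, interval 33.1 to 35.4), against a background of 34% of all 90148 Control peaks tested. Over all counts that share is at the background, but within count classes it was above it. With 50 to 99 counts it was 30.2% against 27.2%, and with at least 100 counts 48.7% against 37.5%. Of the tested regions, 1498 of 6772 Control-only regions and 59514 of 90148 Control peaks had at least 100 counts. The clusters in which regions were high differed too. The endothelial-like clusters 3 and 7 took 4.24 and 4.47% of the Control-only regions, against 2.64 and 2.22% of all Control peaks, and the mural or fibroblast-like cluster 2.20% against 1.5%. The oligodendrocyte-like cluster took 10.3% against 8.85% and the microglia or macrophage-like cluster 9.92% against 10.9%. Regions of Control and PDGFB-NLS without PDGFB-WT had similar shares: 4.16 and 3.37% in the endothelial-like clusters, 1.73% in the mural or fibroblast-like, 12.5% in the oligodendrocyte-like and 12.9% in the microglia or macrophage-like cluster, of 36803 tested.

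The unnamed cluster 2 and the OPC-like cluster took fewer. Cluster 2 took 1.86% of the Control-only regions against 4.5% of all Control peaks, and the OPC-like cluster 1 of 6772 (0.0148%, 0.000374 to 0.0822) against 1.58%. Regions of Control and PDGFB-NLS without PDGFB-WT were low there too, with 2.08% in cluster 2 and 0.212% in the OPC-like cluster. Clusters 5, 9 and 10 took 0.842, 0.310 and 0.0591% against 0.818, 0.507 and 0.49%. Since 20 counts are harder to reach in weak regions, regions with 50 to 99 counts were also taken alone, a choice made after seeing the data. There the OPC-like cluster took 0 of 5274 Control-only regions, which allows up to 0.0699%, against 1.03% of all Control peaks of that size, and cluster 2 took 1.92% against 4.29%. The microglia or macrophage-like cluster then took 8.70% of the Control-only regions against 7.18%, the other way round than over all counts, and the endothelial-like clusters 4.02 and 4.29% against 2.81 and 2.46%.

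**Figure D5:**
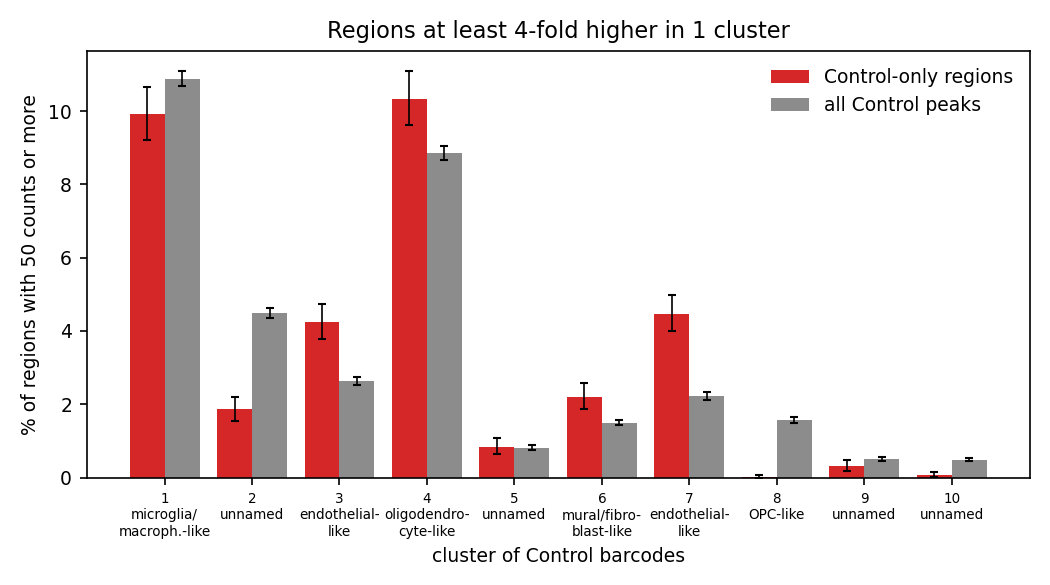
Share of regions with at least 50 counts whose highest CPM of any cluster was at least 4 times that of all other Control barcodes. Shares are given by that cluster, which needed at least 20 counts, for Control-only regions and for all Control peaks. Bars are percentages and whiskers 95% exact binomial intervals that cover counting error only; the OPC-like cluster has 0.0148% of the Control-only regions and 1.58% of all peaks.

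The cluster-high regions with most counts lay mostly in a single cluster in some cases and only partly in others. In the oligodendrocyte-like cluster a region in Kif6, a kinesin gene (chr17:49623984-49624907), had 592 of its 641 counts (92.4%, 90.0 to 94.3), 7981 bp from the nearest PDGFB peak. A region in Ralgds, a RAL exchange factor, had 357 of 575. In the microglia or macrophage-like cluster a region in Otulinl (chr15:27675140-27675963) had 375 of 391 counts (95.9%, 93.4 to 97.6), 2640 bp from a PDGFB-NLS peak and 5176 bp from a PDGFB-WT peak, and a region in Jpt1 had 373 of 442. Wdfy3, among the densest, had 371 of 425 counts there.

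In the endothelial-like clusters the leading regions were in the Schip1 locus (149 of 374 counts in cluster 3), in Smg6, a factor of nonsense-mediated decay (109 of 197 in cluster 3), at Hhex, a homeobox factor of endothelial and blood progenitors (94 of 339 in cluster 7), and near Llgl1, a polarity protein (78 of 331 in cluster 7). In the mural or fibroblast-like cluster they were at Carmn, a noncoding RNA of smooth muscle (82 of 102), and Mrgprf (72 of 299). The only region of the OPC-like cluster, inside Slc27a3, a fatty acid transport protein, had 20 of 111 counts there. Cluster 2 was led by a region at Nog, the BMP antagonist noggin (278 of 397), and by one in Gm39002 (305 of 645). Cluster 5 was led by neighbouring regions of chromosome 7 in and near 1600014C10Rik (113 of 261 and 61 of 88), cluster 9 by regions in Prkce, a protein kinase C (46 of 87), and between genes on chromosome 3 (43 of 54), and cluster 10 by regions in Glp1r, the GLP-1 receptor (43 of 70), and Vav2, an exchange factor (23 of 67).

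Regions called in all 3 libraries allow values to be set side by side near the Control-only regions. Of these, 10275 lay within 10 kb of a Control-only region. Their median log2 ratio of CPM, PDGFB-WT over Control, was 0.02 (quartiles -0.33 and 0.55, 10202 regions with at least 20 counts in both), against 0.14 for all 47042 regions compared. For PDGFB-NLS over Control it was -0.01 (quartiles -0.23 and 0.25, 10272 regions), against 0.03 for all 47429.

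A 2-fold lower CPM in PDGFB-WT was seen in 3.50% of the shared regions near Control-only regions, against a background of 2.49%, and in PDGFB-NLS in 0.847%, against 0.862%, a share at the background. A 2-fold higher CPM was more frequent: 13.3% near Control-only regions against 19.1% of all shared regions in PDGFB-WT, and 4.21% against 6.45% in PDGFB-NLS. The 2-fold lower share near Control-only regions in PDGFB-WT was 1.67% when scaled over all own peaks (all shared regions 1.17%) and 1.06% with at least 100 counts in both libraries (0.684%). Beyond 50 kb from a Control-only region the median was 0.30 for PDGFB-WT and 0.09 for PDGFB-NLS. With at least 100 counts in both libraries the PDGFB-WT median was -0.05 near Control-only regions and -0.04 over all shared regions of that depth. Both comparisons share the Control library, and over whole libraries a change in the number of nuclei of a type and a change in openness per nucleus cannot be told apart.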

How the data were processed

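Single-nucleus ATAC-seq was available for 3 libraries, 1 per group, with counts of transposase cut sites per peak and barcode as deposited by the authors. The peak lists came from cellranger-atac 2.1.0 per the file headers; Cell Ranger 8 and the build mm10 stand in the submitters' processing notes. Settings of the peak caller were not stated in those sources. Peaks were called per library, so a region uncalled in a library has no count there. Most values were 2, the 2 ends of a fragment, and (count + 1) // 2 gave fragments as an alternative.

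Barcodes under 200 counts were dropped, and doublets were not removed. Control barcodes were clustered on 46430 regions of all 3 libraries (TF-IDF, singular value components 2 to 30, 15 neighbours, Leiden resolution 0.6). A cluster was named where a marker list had a median log2 fold of at least 0.5, with a margin of 0.5 over the next list. At least 3 markers had to be measured, and no other list could have more genes among the 10 highest of the cluster. A cluster of low depth also needed a marker of its own list among these 10. These naming thresholds were set after seeing the data. Barcodes are not replicates and no test was made. Shares carry 95% exact binomial (Clopper-Pearson) intervals and CPM exact Poisson intervals, for counting error only. Genes come from RefSeq tables of GRCm38.p6 without strand; the promoter table used here has none on chromosome 18. The genes named are the 10 densest regions with at least 100 counts, the 10 genes with most regions, the 10 with most counts among those whose only end peaks were Control-only, leading genes of each list (up to 2), up to 2 cluster-high regions per cluster, and Pdgfra, Pdgfrb, Olig2 and Sox10; other genes were named after their values were seen. The regions and lists were chosen with earlier results of these data known. The merging and cluster-high steps were tested on simulated data. For the cluster-high step regions were raised in the largest clusters only, so calls in the small clusters were not tried. Python 3.11.15, numpy 2.4.6, pandas 2.3.3, scipy 1.17.1, scikit-learn 1.9.0 and leidenalg 0.10.2 were used.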

Additional observations from a re-analysis of the deposited data

How the results depend on the processing

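Of 38 alternatives to 8 results, 9 stayed within the spread used to compare them and 29 moved; the causes were not tested. The number of Control-only regions was 1498 with at least 100 counts required and 1238 with a density above the median of all Control peaks. The share at gene ends was 19.6% with 2000 bp, 6.33% for protein-coding genes only, 25.03% with at least 100 counts, 10.5% with peaks under 500 bp apart merged and 10.7% for regions at least 500 bp from a PDGFB peak. Median density was 29.5 per kb in fragments, 27.0 as 0 or 1 per barcode and 53.3 for regions at least 500 bp from a PDGFB peak. The share of Control counts was 2.82% in fragments, 3.27% as 0 or 1, 2.998% with barcodes thinned to 1000 counts, 2.77% without the deepest 10% of barcodes and 2.53% without cluster 5. Pooled over its barcodes, the cluster with the highest share had 8.96%, and 10.3% when clustered on all Control peaks, 9.05% in fragments and 9.21% with at least 1000 counts per barcode. The cluster-high share was 36.2% at 2-fold (all Control peaks 42.6%) and 23.4% at Leiden resolution 1.0 (25.4%). It was 48.7% with 100 counts (37.5%) and 30.2% with 50 to 99 counts (27.2%). Control-only regions thus had the higher share in both count classes, and the lower one at 2-fold and at resolution 1.0. Near Control-only regions the median log2 ratio of PDGFB-WT over Control was 0.0563 within 50 kb, -0.0495 with 100 counts, 0.254 scaled over all own peaks and 0.00123 with at least 1000 counts per barcode; for PDGFB-NLS over Control it was 0.00474 within 50 kb, -0.0235 with 100 counts and -0.0622 scaled over all own peaks. The sign thus changed for PDGFB-WT with 100 counts and for PDGFB-NLS within 50 kb. The settings at 500 bp from a PDGFB peak, without cluster 5 and with 50 to 99 counts were chosen after seeing the data. No paired analysis was possible because each group had 1 library. With a median of 48 counts per region, cluster values of single regions rest on few counts, and no replicate shows how far a second Control library would differ.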
